A study of Arabidopsis thaliana with 9 samples.

Results

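The Aux/IAA genes encode short-lived nuclear repressors of auxin signalling. Probe sets of 5 of them, IAA18, IAA19, IAA20, IAA29 and IAA30, were followed in cauline buds, out of 13384 genes that have a named probe set among the 22810 probe sets of the Affymetrix ATH1 array. They were chosen by locus, each with 1 probe set. IAA18 (AT1G51950), IAA20 (AT2G46990), IAA29 (AT4G32280) and IAA30 (AT3G62100) have their names from the platform annotation, and IAA19 (AT3G15540) by the supplementary list of the study, Data S1. The samples were isolated nodal stem segments of 3-4 weeks old Col-0 plants bearing the first cauline bud, and RNA came from the buds after 18 h. By their labels, 3 arrays were treated with 1 µM NAA (a synthetic auxin) apically and 1 µM BA (a cytokinin, CK) basally, 3 with 1 µM NAA apically alone, and 3 were mock-treated with ethanol. These groups are called NAA+BA, NAA and mock. All are wild type and all lack the main shoot apex, and by the labels no auxin was supplied apically to the mock group.

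In an auxin response, auxin joins an F-box receptor of the TIR1/AFB family to the degron of an Aux/IAA protein, which is then ubiquitinated and degraded. This frees auxin response factors (ARFs), which the Aux/IAA protein had held inactive together with TOPLESS corepressors. Many Aux/IAA genes are themselves induced by auxin, so that their transcripts are widely read as a sign of auxin response and form a negative feedback. IAA20 and IAA30 are close relatives whose proteins lack the canonical degron and are more stable than most of the family.

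The names of the arrays labelled mock and NAA are exchanged between the labels and the study, in both Data S1 and its text. That list holds probe sets described as lower with auxin than in the ethanol control, and all 220 of them were higher on the arrays labelled NAA than on those labelled mock. The text of the study reports 2 genes that differ between mock and auxin plus CK. At the thresholds given below, 2 probe sets were called between NAA+BA and NAA by the labels, and 1241 between NAA+BA and mock. The list and this count both match the names once mock and NAA are exchanged. Groups are named here by their labels. Each direction between NAA and mock turns round if the names are exchanged, and NAA+BA against mock then becomes NAA+BA against NAA. IAA19 is an entry of Data S1, a list selected on these same arrays, so that its difference from mock is not independent evidence in either treated group. Values are log2 expression values made by the authors with RMA, in which a difference of 1 is a 2-fold change. The median of an array was 6.99 to 7.11, and precision is limited by having 3 arrays in a group. Of 8 genes listed to check the tissue, 3 have a named probe set. The axillary meristem gene LAS lay between 5.60 and 6.18, and the stem cell gene CLV3 was below 5 on every array. The boundary gene CUC3, named only through Data S1, differed between the groups, with 7.08 to 7.42 on the NAA+BA arrays, 6.23 to 7.20 on the NAA arrays and 5.39 to 5.80 on the mock arrays. Its log2 difference was 1.69 for NAA+BA minus mock (adjusted p = 0.0022 from limma) and 1.23 for NAA minus mock (adjusted p = 0.0073 from limma). Neither is independent evidence, as Data S1 was selected on both comparisons, and the part of CUC3 in the results was not tested. LAS and CLV3 did not pass the test against mock, with adjusted p-values of 0.5194 to 0.9771 from limma.

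Of the 5 genes, IAA19 differed from mock in both treated groups, IAA20 was moderately higher with NAA+BA, and IAA18, IAA29 and IAA30 showed no difference that passed the test. Calls needed an adjusted p under 0.05 (limma, Benjamini-Hochberg over all probe sets) together with at least a 2-fold change, as in the methods of the study. Between NAA+BA and mock 1 of the 5 was called, higher, beside 2.19% of all probe sets called higher, and 5.44% called in either direction. Between NAA and mock it was again 1 of 5, beside 1.28% called higher and 4.78% called in either direction. In both it was IAA19, whose calls in both comparisons were fixed by its entry through Data S1. Both comparisons share the mock arrays. Between NAA+BA and NAA none of the 5 was called, beside 0.00877% of all probe sets, and none had an unadjusted p under 0.05, as 568 of all probe sets did. The median log2 difference of the 5 was 0.07 for NAA+BA minus mock, 0.11 for NAA minus mock and 0.05 for NAA+BA minus NAA. Over all probe sets the medians were 0.02, 0.04 and -0.0012 in the same order.

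**Figure D1:**
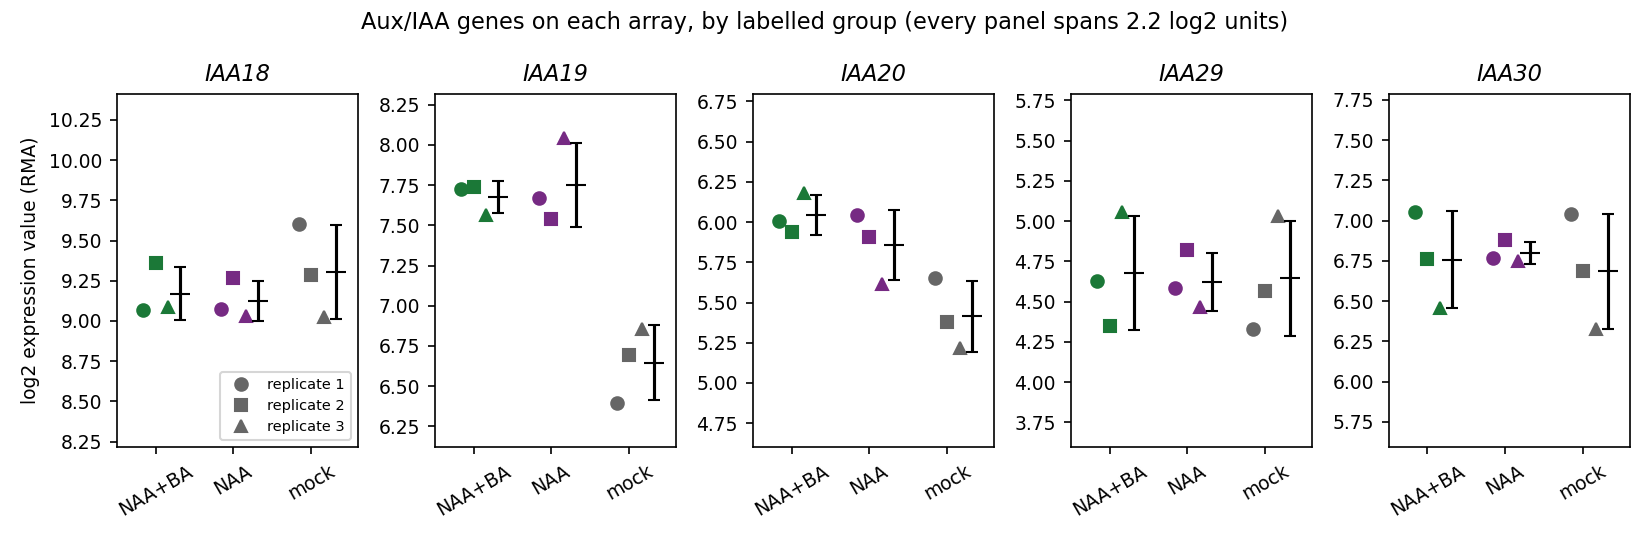
Log2 expression values (vertical axis) of the 5 Aux/IAA genes on each array, by labelled group (horizontal axis), with 1 symbol per replicate number and the mean ± SD (n = 3) in black beside each group. Every panel spans the same number of log2 units but starts at its own level. All 6 treated arrays of IAA19, between 7.54 and 8.04, lie above its 3 mock arrays, between 6.40 and 6.85, while the groups of IAA18, IAA29 and IAA30 overlap.

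IAA19, also known as MSG2, is a repressor of ARF7-dependent growth in hypocotyl bending. Its log2 expression value was 7.73, 7.74 and 7.56 on the NAA+BA arrays, 7.67, 7.54 and 8.04 on the NAA arrays, and 6.40, 6.69 and 6.85 on the mock arrays. All 6 treated arrays were higher than all 3 mock arrays, and the treated groups overlapped each other. Of all probe sets, 18.8% had all NAA+BA arrays above all mock arrays, and 17.3% had all NAA arrays above all mock arrays. The mean was 7.68 ± 0.10 (SD, n = 3) with NAA+BA, 7.75 ± 0.26 (SD, n = 3) with NAA and 6.65 ± 0.23 (SD, n = 3) in mock. The log2 difference was 1.03 for NAA+BA minus mock (standard error 0.16, adjusted p = 0.0037 from limma), a fold change of 2.04. For NAA minus mock it was 1.10 (standard error 0.16, adjusted p = 0.0027 from limma), a fold change of 2.15. Ordered by the size of the difference, IAA19 ranked 1241 of 22810 probe sets in the comparison with NAA+BA and 903 in that with NAA. For NAA+BA minus NAA the log2 difference was -0.07, with a 95% interval of -0.44 to 0.30 and an adjusted p of 0.9996 from limma. With the names mock and NAA exchanged, the same values read as IAA19 at 1.10 less under auxin alone than in the ethanol control, and at 1.03 more under auxin plus CK than under auxin alone. Both folds lie just above the threshold of 2. The adjusted p stayed at or below 0.0198 without any single array, but the fold dropped below 2 without mock replicate 1 in both comparisons (log2 difference 0.91 for NAA+BA and 0.98 for NAA), without NAA+BA replicate 2 (0.999 for NAA+BA), and without NAA replicate 3 (0.96 for NAA) or with array weights (0.94 for NAA).

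IAA20 was the other gene of the 5 with a difference from mock, smaller than 2-fold. Its value was 6.00, 5.94 and 6.18 with NAA+BA, 6.05, 5.91 and 5.62 with NAA, and 5.65, 5.38 and 5.22 in mock. The NAA+BA arrays lay above the mock arrays without overlap, as for 18.8% of all probe sets. The lowest NAA array, replicate 3 at 5.62, lay under the highest mock array, replicate 1 at 5.65. For NAA+BA minus mock the log2 difference was 0.63 (standard error 0.16, adjusted p = 0.0211 from limma), a fold change of 1.54, so that IAA20 passed the adjusted p and not the fold threshold. At an adjusted p alone 10.6% of all probe sets were higher with NAA+BA. For NAA minus mock the log2 difference was 0.44 with an adjusted p of 0.0795 from limma, which was 0.0501 in a fit with the replicate number as a block. The adjusted p for NAA+BA minus mock was above 0.05 without mock replicate 2 (0.0702), NAA+BA replicate 1 (0.0597) or NAA+BA replicate 3 (0.0844), and that for NAA minus mock fell below it without NAA replicate 3 (0.0431). With array weights the log2 difference was 0.60 for NAA+BA minus mock (adjusted p = 0.0009 from limma) and 0.52 for NAA minus mock (adjusted p = 0.0006 from limma).

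IAA30, the close relative of IAA20, did not differ between the groups by an amount that passed the test. It stood at 7.06, 6.76 and 6.46 with NAA+BA, 6.77, 6.88 and 6.75 with NAA, and 7.04, 6.69 and 6.32 in mock. The NAA values lay within the range of the mock values and of the NAA+BA values. The log2 difference was 0.07 for NAA+BA minus mock (95% interval -0.37 to 0.52) and 0.11 for NAA minus mock (95% interval -0.33 to 0.56), with adjusted p-values of 0.8570 and 0.7512 from limma. Whether the responses of IAA20 and IAA30 differ from each other was not tested.

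IAA18, whose stabilised mutant forms disturb embryo patterning and lateral root formation, had log2 expression values of 9.07, 9.36 and 9.08 with NAA+BA, 9.08, 9.27 and 9.03 with NAA, and 9.61, 9.29 and 9.02 in mock. The highest and the lowest value of the gene were both on mock arrays. The log2 difference was -0.13 for NAA+BA minus mock (95% interval -0.50 to 0.23, adjusted p = 0.6495 from limma) and -0.18 for NAA minus mock (95% interval -0.55 to 0.18, adjusted p = 0.5108 from limma). Without mock replicate 1, at 9.61, the first of these was 0.015 and the second -0.031, with an adjusted p of 0.9281 from limma for the second.

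IAA29, which in seedlings is raised by phytochrome-interacting factors in shade and warmth, gave a weak signal. Its value was 4.63, 4.35 and 5.06 with NAA+BA, 4.58, 4.82 and 4.47 with NAA, and 4.33, 4.57 and 5.03 in mock. It was above 5 on 2 of 9 arrays, replicate 3 of NAA+BA and replicate 3 of mock, and so fell out where only probe sets above 5 on at least 3 arrays were tested, which 70.5% of all probe sets were. The log2 difference was 0.03 for NAA+BA minus mock (95% interval -0.46 to 0.52) and -0.02 for NAA minus mock (95% interval -0.51 to 0.47), and its sign changed with the normalization and the arrays used. A low signal leaves the array little room to show a lower transcript level.

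**Figure D2:**
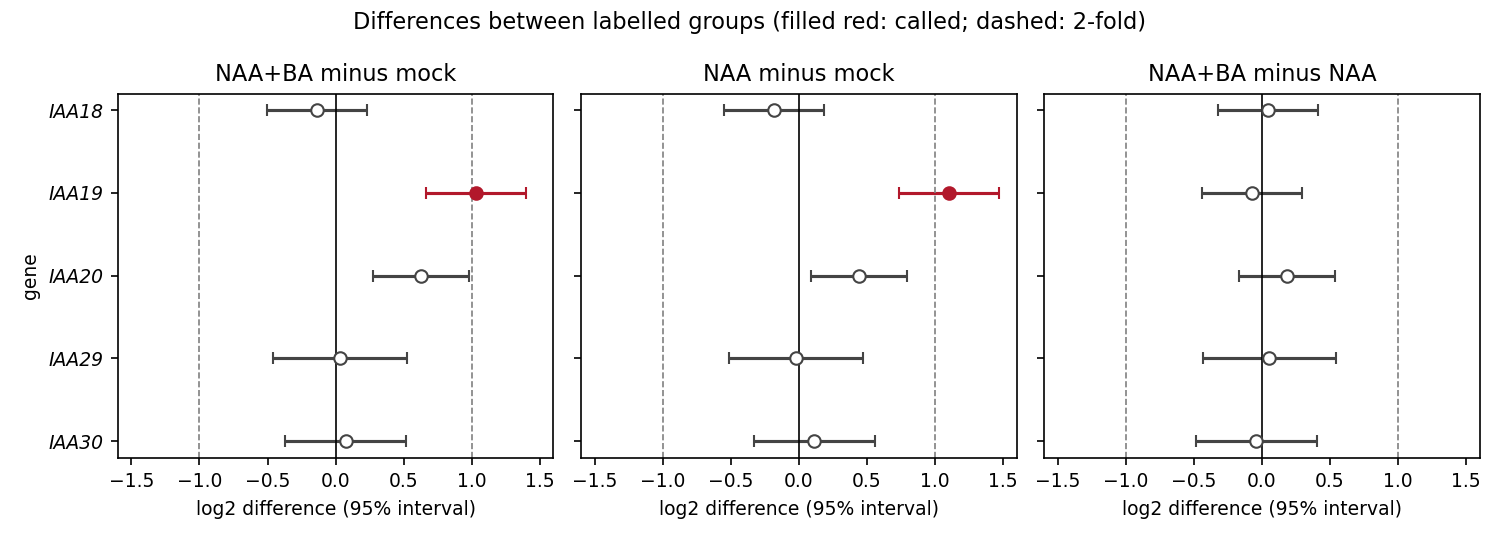
Log2 differences (horizontal axis) of the 5 Aux/IAA genes in the 3 comparisons of labelled groups, with the 95% interval of the limma fit. Filled red points were called, and dashed lines mark a 2-fold change. IAA19 is called at 1.03 and 1.10 against mock and stands at -0.07 between NAA+BA and NAA.

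Where a gene was not called, the interval limits how large a difference could be. The 95% intervals of IAA18, IAA20, IAA29 and IAA30 lay within a 2-fold change in either direction in every comparison, and the nearest bound was that of IAA20 for NAA+BA minus mock, at 0.98. Between NAA+BA and NAA the intervals of all 5 genes lay within 2-fold, and the widest reached from -0.44 to 0.55, for IAA29. These intervals are not adjusted for the number of probe sets, and RMA values can understate fold changes of dim probe sets. In whole buds a lower level in each cell and fewer cells that express the gene cannot be told apart.

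The 5 genes differed in where their variation lay. Of the variation of IAA19 over the 9 arrays, 89.7% lay between the labelled groups, and of that of IAA20 73.4%. For IAA19 this share is not independent evidence, as Data S1, through which it entered, was selected on differences between these groups. The share was 17.1% for IAA18, 4.31% for IAA30 and 0.799% for IAA29, and the median over all probe sets was 37.1%. Between replicate numbers lay 64.5% of the variation of IAA30, 36.3% of that of IAA18 and 33.3% of that of IAA29, but 9.79% for IAA20 and 3.098% for IAA19, with a median of 23.7% over all probe sets. IAA30 was lowest on the replicate 3 array in every group, as were 14.6% of all probe sets. The labels do not say what the arrays of a number share. When the arrays of number 3 were all omitted, which was decided with the results in view, IAA19 differed from mock by 1.19 with NAA+BA and by 1.06 with NAA, and the log2 difference of IAA20 for NAA minus mock was 0.46 with an adjusted p of 0.0256 from limma.

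Of 29 Aux/IAA genes of the family, 8 have a probe set named in the tables used here, and the rest are not analysed here. The 3 outside the chosen 5 are IAA31, a relative of IAA20 and IAA30, and IAA33 and IAA34, whose proteins also lack the canonical degron. All 3 were below 5 on every array. Their log2 differences for NAA+BA minus mock were 0.25 (IAA31, adjusted p = 0.6239), 0.31 (IAA33, adjusted p = 0.6299) and -0.06 (IAA34, adjusted p = 0.8041, all from limma). IAA19, the 1 gene of the 8 that was called, is also the 1 named only through Data S1. The 220 entries of that list were all called higher on the NAA arrays than on the mock arrays. With the names exchanged, the list was also selected on NAA+BA against mock. The place of IAA19 among the 8 thus fixed its calls in both comparisons. The platform annotation names the other 7, of which none was called in any comparison, beside 5.44% of all probe sets for NAA+BA minus mock and 4.78% for NAA minus mock. IAA31 and IAA33 were also lowest on replicate 3 in every group. For IAA33 85.3% of the variation lay between replicate numbers. Its values were 4.83, 4.24 and 3.82 with NAA+BA, 4.69, 4.33 and 3.65 with NAA, and 4.31, 4.33 and 3.33 in mock.

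**Figure D3:**
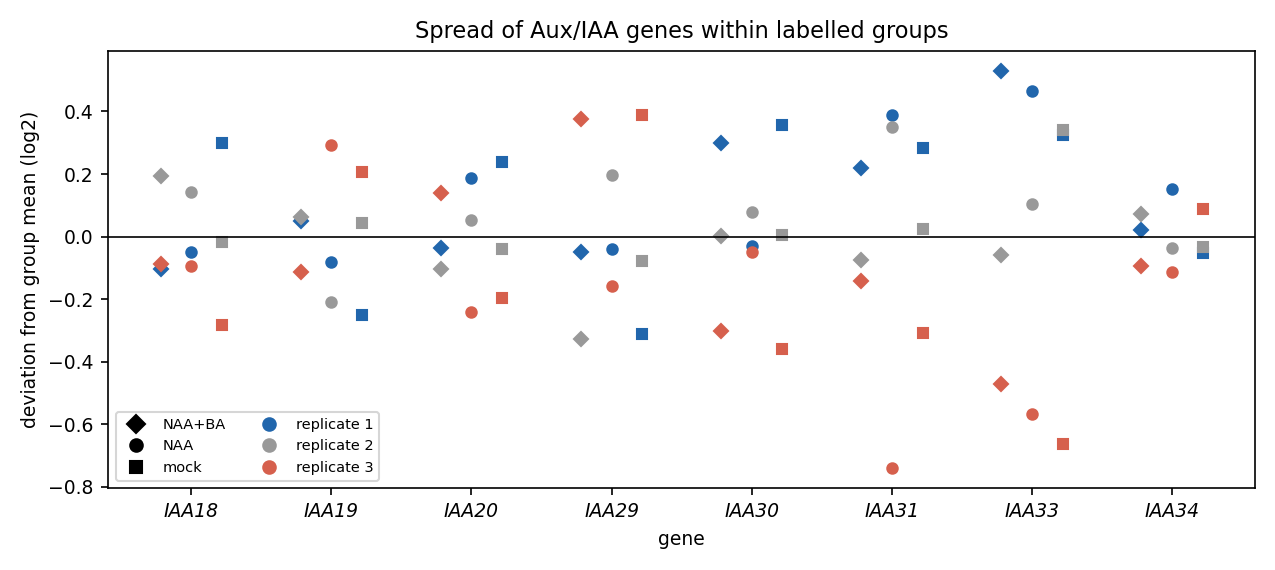
Deviation of each array from the mean of its labelled group (vertical axis, log2) for the 8 Aux/IAA genes with a named probe set, with symbols for the groups and colours for the replicate numbers. Replicate 3 is lowest in every group for IAA30, IAA31 and IAA33, at -0.66 for IAA33 in mock.

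Genes that act with the Aux/IAA proteins were sparsely covered. Of 13 listed genes of the auxin receptor complex 1 has a named probe set, AFB1, a receptor of the TIR1/AFB family, and it is named only through Data S1. Its calls for both NAA+BA and NAA against mock were thus fixed by the way it entered, and its values are a description. Its value was 9.48, 9.28 and 9.50 with NAA+BA, 9.04, 9.04 and 9.60 with NAA, and 7.92, 8.14 and 8.62 in mock. The log2 difference was 1.19 for NAA+BA minus mock and 1.00 for NAA minus mock, a fold change of 2.00 that lies at the threshold. For NAA it was 0.81 without NAA replicate 3, 0.85 without mock replicate 1 and 0.96 without mock replicate 2. None of 15 listed ARF genes or of 5 listed TOPLESS genes has a named probe set, and no named probe set carries a symbol that starts with SAUR, so that these genes are not analysed here.

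Most of the other genes listed as early auxin targets were not called. Of 12 listed, 7 have a named probe set, and in each treated group 1 was called higher than mock, 1 lower, and 5 were not called. Of all probe sets, 2.19% were called higher with NAA+BA and 1.28% with NAA, and 5.44% and 4.78% were called in either direction. GH3.3, whose product conjugates auxin to amino acids, was higher by 1.35 (adjusted p = 0.0050 from limma) with NAA+BA and by 1.11 (adjusted p = 0.0115 from limma) with NAA. GH3.5, which encodes an enzyme of the same family, had log2 differences of -2.13 with NAA+BA and -2.25 with NAA (adjusted p = 0.0025 and 0.0018 from limma). HAT2, an auxin-inducible homeobox gene, was lower than mock by less than 2-fold, with -0.57 for NAA+BA (adjusted p = 0.0241 from limma) and -0.67 for NAA (adjusted p = 0.0138 from limma). GH3.17 had estimates of -1.02 and -0.96 in the same order and did not pass the test (adjusted p = 0.0528 and 0.0679 from limma). The remaining genes of the list that were not called gave weak signals, of at most 5.42 on any array. The median log2 difference of the 7 genes was -0.25 with NAA+BA and 0.01 with NAA. Between NAA+BA and NAA none of the 7 was called, beside 0.00877% of all probe sets. GH3.5 was called in both comparisons without any single array and GH3.3 in that with NAA+BA, while for NAA the log2 difference of GH3.3 was 0.85 without mock replicate 2. The adjusted p of HAT2 was above 0.05 without several of the arrays compared, the highest being 0.0907 for NAA+BA without mock replicate 1, and GH3.17 was called in both comparisons without mock replicate 3 (-1.34 for NAA+BA and -1.28 for NAA) and for NAA+BA without NAA+BA replicate 1 (-1.29). GH3.3 is an entry of Data S1, too, so that its calls against mock are not independent evidence in either treated group. IAA19, AFB1 and GH3.3 were thus higher on the arrays labelled NAA than on those labelled mock. All of them are entries of Data S1, so that this direction was fixed by the selection of that list. GH3.5 and HAT2 were lower on the arrays labelled NAA than on those labelled mock. With the names exchanged each of these directions turns round.

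By likeness over the 9 arrays, the genes whose pattern was nearest to that of IAA19 were AT5G63010 and IQD31, a gene of the calmodulin-binding IQD family. Those nearest to IAA20 were AT3G21600 and AT2G46630. Likeness was measured as the Pearson correlation with named probe sets of an SD of at least 0.3, and it was 0.98 for both genes of IAA19 and 0.97 and 0.96 for those of IAA20. The arrays share their groups, so that any gene that differs between treated and mock arrays scores highly. At an adjusted p under 0.05 from limma, AT5G63010 was higher by 1.00 with NAA+BA and by 0.96 with NAA than in mock, and IQD31 by 0.66 and 0.77. AT3G21600 was higher by 0.67 and 0.49 in the same order, and AT2G46630 by 1.13 and 0.91, also at an adjusted p under 0.05 from limma. For IAA18, IAA29 and IAA30, whose groups did not separate, the nearest genes had correlations between 0.88 and 0.92. They were AT2G45670 and AT2G26600 for IAA18, AT5G57080 and AT5G61400 for IAA29, and AT4G19790 and AT2G35390 for IAA30, and none of them passed the test against mock.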

How the data were processed

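RNA from cauline buds was hybridised to 9 ATH1 arrays, 3 in each labelled group. The deposited values are log2 expression values, for which the authors used RMA and R 2.15. Versions of RMA and of their limma are not given in the sources. No value was filtered or transformed. For all 22810 probe sets, lmFit of limma 3.58.1 (R 4.3.3) fitted group means to all 9 arrays, and contrasts were tested with eBayes. The procedure was tested on simulated data. The platform annotation names 13436 probe sets with 1 locus and Data S1, of which only probe set and locus were used, a further 98. Data S1 also holds the authors' fold changes and p-values, which were not used. The members, lists and tests were chosen with earlier results of these data known. Genes named were the 5 members, further Aux/IAA genes, up to 4 genes of each list with the largest differences, the 2 genes most like each member and 3 tissue genes. Genes of auxin transport were left out.

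Same-numbered arrays of NAA and mock deviated together from their group means (r = 0.32, 0.38 and 0.45), while for the pairs with NAA+BA 1 of 3 correlations was under 0.1 in each case. The replicate block was therefore an alternative, beside other thresholds, normalizations, priors, array weights, left-out arrays and exchanged names.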

Additional observations from a re-analysis of the deposited data

How the results depend on the processing

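IAA19 kept its direction against mock under every alternative except the exchange of names. As it entered through Data S1, this is not independent evidence. IAA20 kept its direction under all other alternatives too. With the names exchanged it turned round for NAA minus mock, to -0.44, but not for NAA+BA minus mock, at 0.18. Between NAA+BA and mock, 1 of the 5 genes was called and 2 were with no fold change threshold, when IAA20 was added. Between NAA and mock none was called with array weights. Leaving out single arrays gave 0 to 1 called genes in each comparison with mock. The replicate block changed no call of a member. Numbers of all probe sets called were 4542 (NAA+BA minus mock) and 4179 (NAA minus mock) with no fold change threshold, and 1734 (NAA minus mock) with array weights. With all arrays of number 3 left out they were 1942 and 1970, and for NAA+BA minus NAA 7. That last count, 2 as analysed, was 7 with the replicate block, 1 with quantile normalization again, median centring or the 6 arrays compared, and 30 with array weights. Without single arrays the counts were 741 to 2167, 732 to 2041 and 1 to 4 in the 3 comparisons.

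Signs of small differences changed. For NAA+BA minus mock IAA29 was at -0.0028 after quantile normalization. For NAA minus mock IAA29 was at 0.0086 after median centring, 0.21 with array weights and 0.25 without number 3, where IAA30 was at -0.042. For NAA+BA minus NAA, IAA18 was at -0.012 and IAA29 at -0.0033 after median centring. With array weights, IAA18 was at -0.015, IAA19 at 0.12 and IAA29 at -0.17. Without number 3, IAA19 was at 0.13, IAA20 at -0.0061, IAA29 at -0.21 and IAA30 at 0.085. Without single arrays, IAA18 ranged from -0.28 to 0.015, IAA29 from -0.15 to 0.23 and IAA30 from -0.11 to 0.25 for NAA+BA minus mock, IAA29 from -0.18 to 0.17 and IAA30 from -0.066 to 0.29 for NAA minus mock, and IAA18 from -0.050 to 0.12, IAA19 from -0.18 to 0.073, IAA29 from -0.13 to 0.22 and IAA30 from -0.19 to 0.11 for NAA+BA minus NAA. The cause was not tested.

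With the names mock and NAA exchanged, NAA minus mock was 0.18 for IAA18, -1.10 for IAA19, -0.44 for IAA20, 0.021 for IAA29 and -0.11 for IAA30. NAA+BA minus mock was 0.046 for IAA18, -0.073 for IAA19, 0.18 for IAA20, 0.055 for IAA29 and -0.041 for IAA30, with 2 probe sets and 0 of the 5 genes called. NAA+BA minus NAA was -0.13 for IAA18, 1.03 for IAA19, 0.63 for IAA20, 0.034 for IAA29 and 0.07 for IAA30, with 1241 probe sets and 1 of the 5 genes called. In that last comparison IAA20 had an adjusted p of 0.0211 from limma and did not pass the fold threshold.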
